A study of Mus musculus with 7 samples.

Results

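The genes described here are 37 genes of cholesterol and fatty acid synthesis in neuronal cultures of mouse cortex. They cover the SREBP control system, the enzymes that build cholesterol, the enzymes that build and modify fatty acids, and a few genes of cholesterol uptake, transport and removal. A gene was measured through the array's probe sets that are annotated to it alone, after names ending in _x_at were dropped and at least 50 intensity units were required on any array. Of the 37 genes, 36 were tested, of 12315 genes tested in all. They were tested through 65 probe sets, 20 genes having several, and a gene is represented by its brightest one, that is, the highest in mean over the 7 arrays. *Acat2* had no probe set paired with it in the annotation used here. Another 12 probe sets of these genes never reached 50.

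Cholesterol is made from acetyl-CoA through mevalonate to squalene, which is closed into lanosterol and then trimmed to cholesterol by the sterol ring enzymes. Transcription of these enzymes is driven by the SREBP factors, of which the product of *Srebf2* is best known for sterol genes and the SREBP-1c product of *Srebf1* for fatty acid genes. SCAP carries SREBP to the Golgi for cleavage when sterols are low, and the INSIG proteins hold it back when sterols are high. The brain makes its own cholesterol because the blood-brain barrier keeps out lipoproteins. Cultured neurons and astrocytes both carry out the synthesis, and astrocytes export cholesterol on lipoprotein particles through ABC transporters.

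Cortical cells of C57/Bl6J mouse embryos (embryonic day 16) were kept for 16 days in vitro. In the luciferase group, 4 cultures had been transduced with a lentivirus that carries a short hairpin RNA (shRNA) against luciferase, a gene that mice lack. The vector drives the hairpin from the human H1 promoter and also encodes green fluorescent protein. In the blank group, 3 cultures were naïve, that is, never transduced, so virus, hairpin and reporter cannot be told apart in the comparison. The question was what the control vector did to this set of lipid genes. Each culture's total RNA went to its own Affymetrix array, and levels are given as RMA intensities (linear scale). Because the labels do not tie the cultures to separate litters, p-values rest on the scatter of these cultures alone, part of which may be technical.

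Arrays of 1 group correlated at r of 0.989 to 0.996 and arrays of different groups at 0.977 to 0.985 over the tested probe sets. The median level of the tested probe sets was 237.4 to 241.4 on the luciferase arrays and 215.5 to 235.1 on the blank arrays, as deposited. The median log2 change over all tested probe sets was 0.056 in these values. Quantile normalization took this median to 0.0008, and centring each array on its median took it to -0.040. Counts under those 2 scalings are given below beside those of the values as deposited.

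Of the 36 genes, 7 rose and 1 fell in luciferase cultures at an adjusted p up to 0.05 (limma, Benjamini-Hochberg over 22748 probe sets), and 28 did not pass. The risers were *Srebf1*, *Scap*, *Sc5d*, *Acss2*, *Scd1*, *Vldlr* and *Abca1*, and the gene that fell was *Nsdhl*. The share that rose was 19.4%, against 16.9% of all genes tested, and the share that fell was 2.78%, against 8.55%. After quantile normalization 4 of the genes rose and 4 fell (11.1% each, against 11.5% and 12.4% of all genes), and after centring of the arrays 2 rose and 8 fell (5.56% and 22.2%, against 9.42% and 15.8%). Not one of them passed with at least 1.5-fold in this fit, a size that 4.06% of all genes reached, and 11 (30.6%) had an unadjusted limma p under 0.05, as did 39.7% of all genes. The groups of arrays did not overlap for 13 of the 36 (36.1%), against 37.5% of all genes. By probe set, 12 of the 65 rose and 2 fell, where 16.2% of all probe sets rose and 8.26% fell. The median log2 change was 0.0026 over the 36 and 0.057 over all genes, and 28 of the 36 lay within 0.25 of 0. The 1.5-fold line is 0.58 on the log2 scale, so all of these changes were below it.

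**Figure D1:**
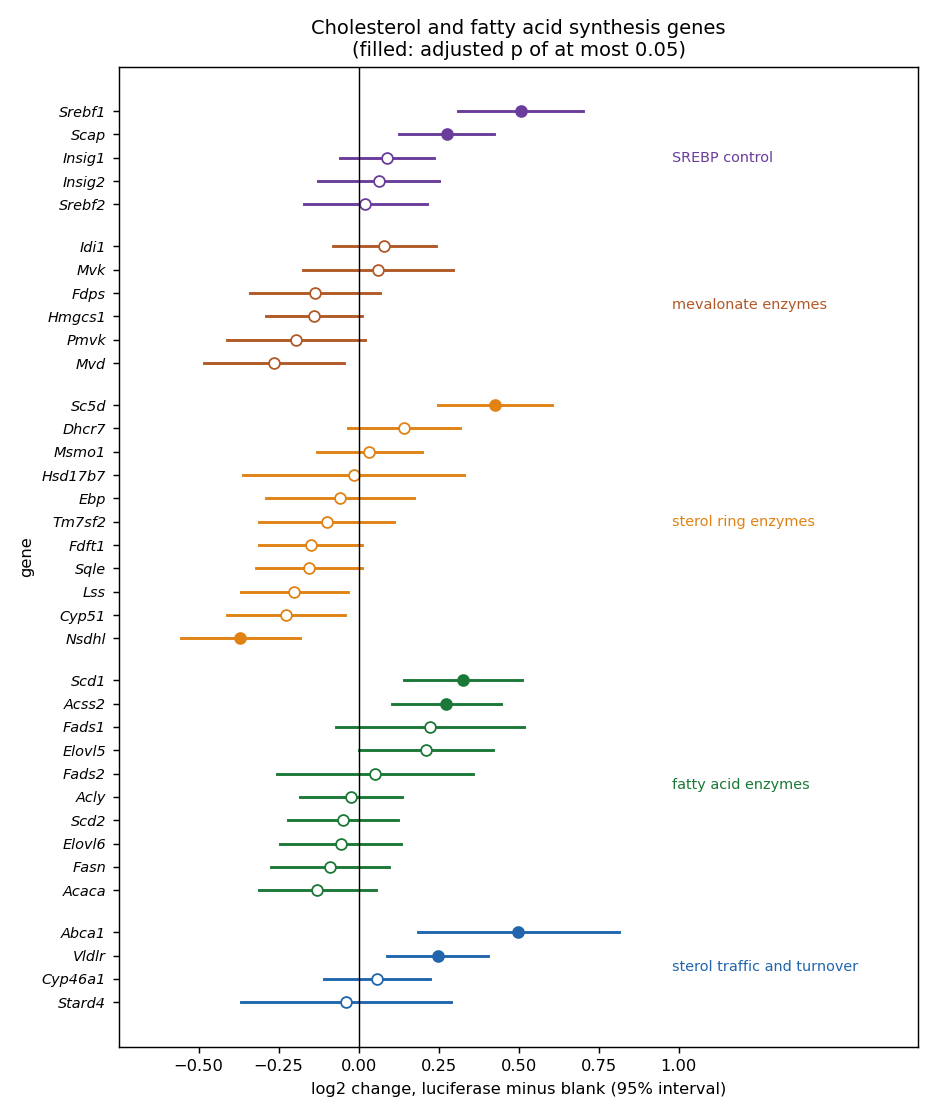
Log2 change (luciferase minus blank, x axis) of the 36 tested genes by group, with points for the estimate, bars for the 95% interval and filled points for an adjusted p up to 0.05. In the values as deposited, all 5 SREBP control genes lie to the right of 0 (2 with centred arrays), 12 of the 17 sterol enzymes (mevalonate and ring enzymes) lie to the left, and the fatty acid enzymes are split 5 and 5. Of all 12315 genes tested, 7366 had a change above 0 and 4949 below it as deposited.

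The 5 SREBP control genes all stood above 0 as deposited, while 2 were below 0 after quantile normalization and 3 with centred arrays. By limma 2 of the 5 rose as deposited, against 16.9% of all genes. After quantile normalization 2 of the 5 rose, against 11.5% of all genes, and with centred arrays 1 rose, against 9.42%. None of the 5 fell in these scalings, against 8.55%, 12.4% and 15.8% of all genes. *Srebf1* read 593, 513, 540 and 637 in the luciferase cultures, against 402, 406 and 393 in the blank ones. Every luciferase array was above every blank array, and the blank arrays hardly differed among themselves. Its mean was 570 ± 55.3 (SD, n = 4) against 400.3 ± 6.22 (SD, n = 3), for a log2 difference of 0.51 (standard error 0.087, limma adjusted p = 0.0046), and it passed under all 15 alternatives. *Scap*, the sterol sensor that escorts SREBP, read 839, 866.5, 857 and 880.5 in the luciferase cultures, against 712, 689 and 733 in the blank ones. Again the groups did not overlap. The log2 change of *Scap* was 0.27 (standard error 0.067, limma adjusted p = 0.018). *Scap* no longer passed without blank replicate 5, without blank replicate 6 or with centred arrays, where the adjusted p lay at most at 0.061.

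The gene for the other SREBP factor, *Srebf2*, gave no such separation. It lay between 864 and 966 in the luciferase cultures and between 821 and 995 in the blank ones, and its log2 change was 0.021 (95% interval -0.17 to 0.21, limma adjusted p = 0.88). Its second probe set had the opposite sign, at -0.0755 (limma adjusted p = 0.55). *Insig1*, which retains SCAP in the endoplasmic reticulum and is itself a classical SREBP target, lay at 1218 ± 26.0 (SD, n = 4) against 1146 ± 24.5 (SD, n = 3). Its groups did not overlap, but the log2 change of 0.089 missed the test (limma adjusted p = 0.35) and turned to -0.0073 with centred arrays. *Insig2*, which encodes its counterpart, had a log2 change of 0.063 (limma adjusted p = 0.61) that also changed sign under centring, and its other 2 probe sets lay at -0.089 and 0.19.

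None of the 6 mevalonate enzymes tested passed through its representative probe set by limma in the values as deposited. There 1 of the 6 had an unadjusted limma p under 0.05, as did 39.7% of all genes. After quantile normalization 1 of the 6 fell, against 12.4% of all genes. With centred arrays 3 of the 6 fell, against 15.8% of all genes. *Hmgcs1*, the cytosolic HMG-CoA synthase at the entry of the pathway, read 14994, 14652, 14908 and 15611 in the luciferase cultures, against 16242, 16449 and 17022 in the blank ones. The groups were apart, with the luciferase arrays lower, yet the log2 change was only -0.14 (limma adjusted p = 0.15). Its other 2 probe sets changed by -0.19 and -0.23, and the latter passed (limma adjusted p = 0.038).

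*Mvd*, the decarboxylase that makes isopentenyl diphosphate, had the lowest change among the 6. It lay at 1339 ± 149 (SD, n = 4) against 1603 ± 99.7 (SD, n = 3), for a log2 difference of -0.26 (95% interval -0.48 to -0.046, limma adjusted p = 0.075), with overlapping groups. *Pmvk*, which encodes phosphomevalonate kinase, changed by -0.19 and *Fdps*, which encodes farnesyl diphosphate synthase, by -0.14 on the log2 scale, neither past the test (limma adjusted p = 0.17 and 0.30). *Mvk*, which encodes mevalonate kinase, and *Idi1*, which encodes the isomerase of isopentenyl diphosphate, had log2 changes of 0.060 and 0.081 that turned negative with centred arrays. The 2 probe sets of *Idi1* differed in sign, the second one changing by -0.33 without passing (limma adjusted p = 0.14).

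Among the 11 enzymes from squalene to cholesterol, 1 rose and 1 fell as deposited (9.09% each, against 16.9% and 8.55% of all genes). *Sc5d*, the sterol C5-desaturase that works near the end of the pathway, read 1877, 1882, 1698 and 2047 in the luciferase cultures, against 1380, 1388 and 1411 in the blank ones. The lowest luciferase array stood well above the highest blank array. Mean levels were 1876 ± 143 (SD, n = 4) and 1393 ± 16.0 (SD, n = 3), for a log2 difference of 0.43 (standard error 0.079, limma adjusted p = 0.0063). All 3 probe sets of *Sc5d* passed, the other 2 at 0.38 and 0.35, and the representative one passed under all 15 alternatives.

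*Nsdhl*, the X-linked dehydrogenase that takes part in removing the methyl groups at C4 of the sterol, went the other way. It read 1367, 1340, 1388 and 1501 in the luciferase cultures, against 1880, 1915 and 1636 in the blank ones. Blank replicate 7 was the lowest of its group but still above every luciferase array. Mean levels were 1399 ± 70.9 (SD, n = 4) and 1810 ± 152 (SD, n = 3), for a log2 difference of -0.37 (standard error 0.083, limma adjusted p = 0.013). The gene missed the test without blank replicate 5 (log2 change -0.34, limma adjusted p = 0.051) and without blank replicate 6 (-0.33, limma adjusted p = 0.0504), and the adjusted p ranged from 7.95e-04 to 0.0514 over the 15 alternatives. Both *Nsdhl* and *Sc5d* act after lanosterol, and they were the members of the ring group with the lowest and the highest change.

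The other 9 ring enzymes did not pass. *Cyp51*, the lanosterol demethylase, lay at 1495 ± 111 (SD, n = 4) against 1747 ± 87.3 (SD, n = 3), for a log2 difference of -0.23 (limma adjusted p = 0.073). *Lss*, the lanosterol synthase, lay at 711 ± 34.1 (SD, n = 4) against 818 ± 41.5 (SD, n = 3), for a log2 difference of -0.20 (limma adjusted p = 0.077). For both genes every luciferase array was below every blank array. *Fdft1*, the squalene synthase, and *Sqle*, the squalene epoxidase that limits the rate of the late pathway, each changed by -0.15 (limma adjusted p = 0.15 and 0.16). *Tm7sf2*, which encodes a sterol C14-reductase, stood at -0.10, *Ebp*, which encodes the sterol isomerase, at -0.057, and *Hsd17b7*, a 3-ketosterol reductase, at -0.016 on the log2 scale. *Msmo1*, the C4-methylsterol oxidase that acts beside the *Nsdhl* product, stood at 0.033 (95% interval -0.13 to 0.20). *Dhcr7*, which reduces the last ring double bond in the branch through 7-dehydrocholesterol, stood at 0.14 (limma adjusted p = 0.20).

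Taken as a list, 12 of the 17 sterol enzymes were below 0 and 5 above, with a median log2 change of -0.14. With quantile normalization 13 were below 0 and with centred arrays 15, the exceptions in the latter being *Sc5d* and *Dhcr7*. Of all 12315 genes tested, 4949 were below 0 as deposited, 6210 with quantile normalization and 7009 with centred arrays, so the sign counts moved with the scaling in all genes too. How many of the sterol enzymes passed rested on the scaling of the arrays. As deposited 1 fell, 4 fell after quantile normalization (*Mvd*, *Lss*, *Cyp51* and *Nsdhl*), and 8 fell with centred arrays, when *Hmgcs1*, *Pmvk*, *Fdft1* and *Sqle* joined them. The shares that fell were 5.88%, 23.5% and 47.1%, against 8.55%, 12.4% and 15.8% of all genes in the same scaling. In each of these scalings *Sc5d* alone rose. Weighting the arrays by their estimated quality (limma's array weights) gave 6 that fell, and 2 that rose, *Dhcr7* being the added one.

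**Figure D2:**
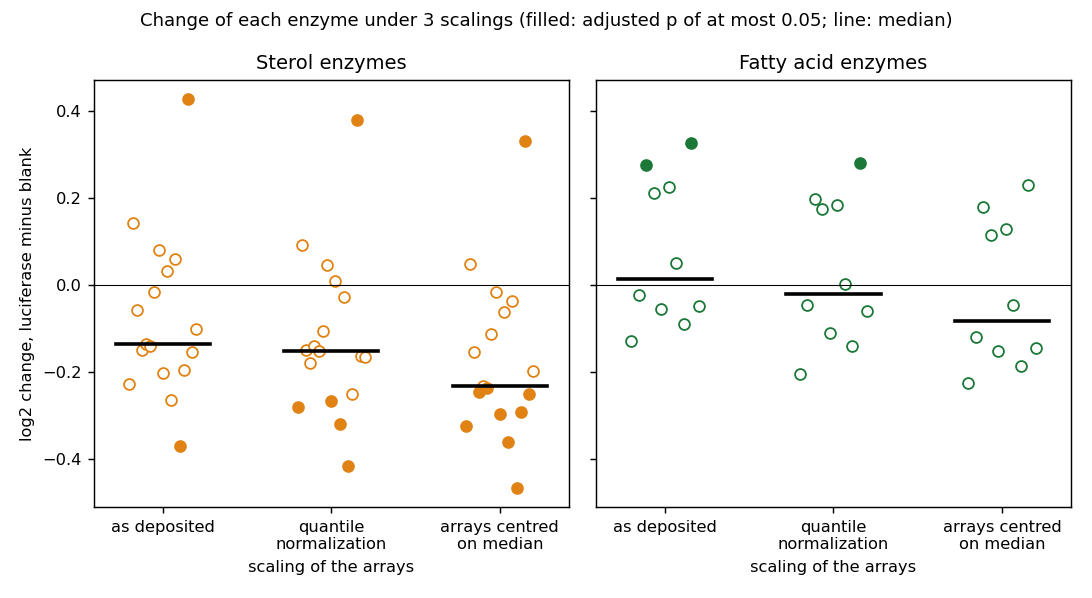
Log2 change (luciferase minus blank, y axis) of each sterol enzyme (left, 17 genes) and fatty acid enzyme (right, 10 genes) in the values as deposited, after quantile normalization and with arrays centred on their median. Points are genes, filled at an adjusted p up to 0.05, and lines are medians; with centring the sterol median moves from -0.14 to -0.23 and the fatty acid median from 0.014 to -0.082.

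Promoter letters are shown for 3 of the sterol genes: *Hmgcs1*, the only gene of the set whose window held the sterol regulatory element searched, and *Nsdhl* and *Sc5d*, the ring enzymes that moved apart. The windows run from 250 bases before to 50 bases after the annotated start and come from RefSeq (GRCm38.p6). They are printed 5′ to 3′ along the gene, and capitals mark matches to TCACNCCAC, the classical sterol regulatory element to which SREBP binds, and to CCAAT, the box bound by NF-Y, on either strand (ATTGG is CCAAT on the other strand). The *Hmgcs1* window is chr13:119690101-119690400 on the plus strand, that of *Nsdhl* is chrX:72918271-72918570 on the plus strand, and that of *Sc5d* is chr9:42264251-42264550 on the minus strand.
Hmgcs1: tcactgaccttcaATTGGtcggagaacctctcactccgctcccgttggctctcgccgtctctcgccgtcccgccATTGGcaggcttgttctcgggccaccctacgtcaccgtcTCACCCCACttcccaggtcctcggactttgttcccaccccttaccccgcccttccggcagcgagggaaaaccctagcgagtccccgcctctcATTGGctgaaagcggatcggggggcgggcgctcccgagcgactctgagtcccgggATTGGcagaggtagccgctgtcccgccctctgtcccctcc
Nsdhl: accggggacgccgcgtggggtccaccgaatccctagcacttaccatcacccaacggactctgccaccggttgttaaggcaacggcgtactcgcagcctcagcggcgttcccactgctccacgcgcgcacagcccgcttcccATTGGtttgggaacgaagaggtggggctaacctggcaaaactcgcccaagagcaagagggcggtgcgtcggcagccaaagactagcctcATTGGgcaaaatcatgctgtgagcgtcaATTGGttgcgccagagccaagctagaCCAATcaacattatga
Sc5d: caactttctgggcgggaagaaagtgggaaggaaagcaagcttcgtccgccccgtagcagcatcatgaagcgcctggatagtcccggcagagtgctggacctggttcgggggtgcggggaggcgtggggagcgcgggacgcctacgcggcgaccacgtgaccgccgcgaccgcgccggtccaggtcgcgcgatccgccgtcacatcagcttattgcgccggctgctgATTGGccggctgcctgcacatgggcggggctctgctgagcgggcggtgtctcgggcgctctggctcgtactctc
In *Hmgcs1* the element TCACCCCAC begins 137 bases before the start, with CCAAT boxes 176 bases and 45 bases before it among others. The *Nsdhl* window has 4 CCAAT boxes, 2 of them before the start, and the *Sc5d* window has 1, which begins 24 bases before it.

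Of the 37 genes, 30 had a promoter window, and *Fdps*, *Scd2*, *Fads1*, *Scd1*, *Stard4*, *Fdft1* and *Sqle* had none in the table. TCACNCCAC was found in 1 of their 39 windows, against 1.24% of 32851 windows of all genes. CCAAT was found in 25 of the 39 (64.1%), against 37.4% of all windows, and 24 of the 30 genes had at least 1. The genes that passed differed in this respect. *Srebf1*, *Sc5d*, *Nsdhl*, *Acss2* and *Vldlr* had a CCAAT match, and *Scap* and *Abca1* had none in these letters. Such a match is a description of the letters, and the window covers only a short stretch around the start.

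Of the 10 fatty acid enzymes, 2 (20.0%) rose and none fell by limma as deposited, against 16.9% and 8.55% of all genes. An unadjusted limma p under 0.05 was reached by 2 (20.0%), against 39.7% of all genes. After quantile normalization 1 of the 10 rose, against 11.5% of all genes, and with centred arrays 0 rose, against 9.42%. Again none fell in these 2 scalings, against 12.4% and 15.8% of all genes. *Acss2*, which makes acetyl-CoA from acetate, read 633, 693.5, 661.5 and 713 in the luciferase cultures, against 541, 541 and 593 in the blank ones. The groups did not overlap. Its log2 change was 0.27 (standard error 0.076, limma adjusted p = 0.029), and its second probe set changed by 0.37 (limma adjusted p = 0.0075). The representative probe set passed under 7 of 15 alternatives, with adjusted p from 0.0037 to 0.097. It missed the test when luciferase replicate 2, 3 or 4 or blank replicate 5 or 6 was left out.

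*Scd1*, a stearoyl-CoA desaturase that makes oleate and a textbook target of SREBP-1c and LXR, read 2263, 2120, 2043 and 2437 in the luciferase cultures, against 1724, 1849 and 1723 in the blank ones. All luciferase arrays were the higher ones. Its log2 change was 0.33 (standard error 0.082, limma adjusted p = 0.021), and it passed under 11 of 15 alternatives, the exceptions including the sets without luciferase replicate 1 and without blank replicate 5. Its weaker probe set changed by 0.14 and did not pass (limma adjusted p = 0.45). *Scd2*, the desaturase paralog abundant in mouse brain, lay at 11475 ± 449 (SD, n = 4) against 11878 ± 836 (SD, n = 3), for a log2 difference of -0.048 (95% interval -0.22 to 0.12, limma adjusted p = 0.67). Its other 2 probe sets had the opposite sign, at 0.057 and 0.0605, and did not pass (limma adjusted p = 0.59 and 0.83).

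The core synthesis enzymes did not pass and were slightly below 0. *Acly*, which supplies cytosolic acetyl-CoA from citrate, changed by -0.023, *Acaca*, the acetyl-CoA carboxylase, by -0.13, and *Fasn*, the fatty acid synthase, by -0.089 on the log2 scale. Their adjusted p-values from limma lay between 0.27 and 0.83. *Elovl6*, which elongates the saturated product of FASN, changed by -0.056 (limma adjusted p = 0.65), and its second probe set by 0.0125 (limma adjusted p = 0.94).

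In their representative probe sets, the enzymes of polyunsaturated fatty acids had a wide spread in the blank group, in which replicate 7 was the highest array for each. *Fads1*, the delta-5 desaturase, read 3156, 3505, 3396 and 2756 in the luciferase cultures, against 2405, 2504 and 3383 in the blank ones. *Fads2*, the delta-6 desaturase, read 2161, 1937, 1776 and 1745 in the luciferase cultures, against 1612, 1638 and 2327 in the blank ones. *Elovl5*, the elongase between their steps, read 2573, 2552, 2548 and 2273 in the luciferase cultures, against 1978, 2036 and 2454 in the blank ones. In *Fads1* and *Elovl5* blank replicates 5 and 6 were below every luciferase array while blank replicate 7 lay among them, and in *Fads2* blank replicate 7 was the highest array of all. Log2 changes were 0.22, 0.051 and 0.21 for *Fads1*, *Fads2* and *Elovl5*, with limma adjusted p-values of 0.24, 0.81 and 0.13. The second probe set of *Fads2* read 1190, 1279 and 1062 in the blank cultures, with replicate 7 the lowest of them. It changed by 0.090 (limma adjusted p = 0.62). The second probe set of *Fads1*, at intensities of 64.75 to 83.9, changed by -0.0046 (limma adjusted p = 0.98). Without blank replicate 7, *Fads1* changed by 0.38 through its representative probe set and *Elovl5* by 0.31, and both passed (limma adjusted p = 0.0272 and 0.0213). Over all alternatives the adjusted p ranged from 0.00856 to 0.554 for *Fads1* and from 0.00581 to 0.352 for *Elovl5*. Limma's array weights gave blank replicate 7 the lowest weight of the 7 arrays, 0.271, and blank replicate 5 the highest, 3.41.

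**Figure D3:**
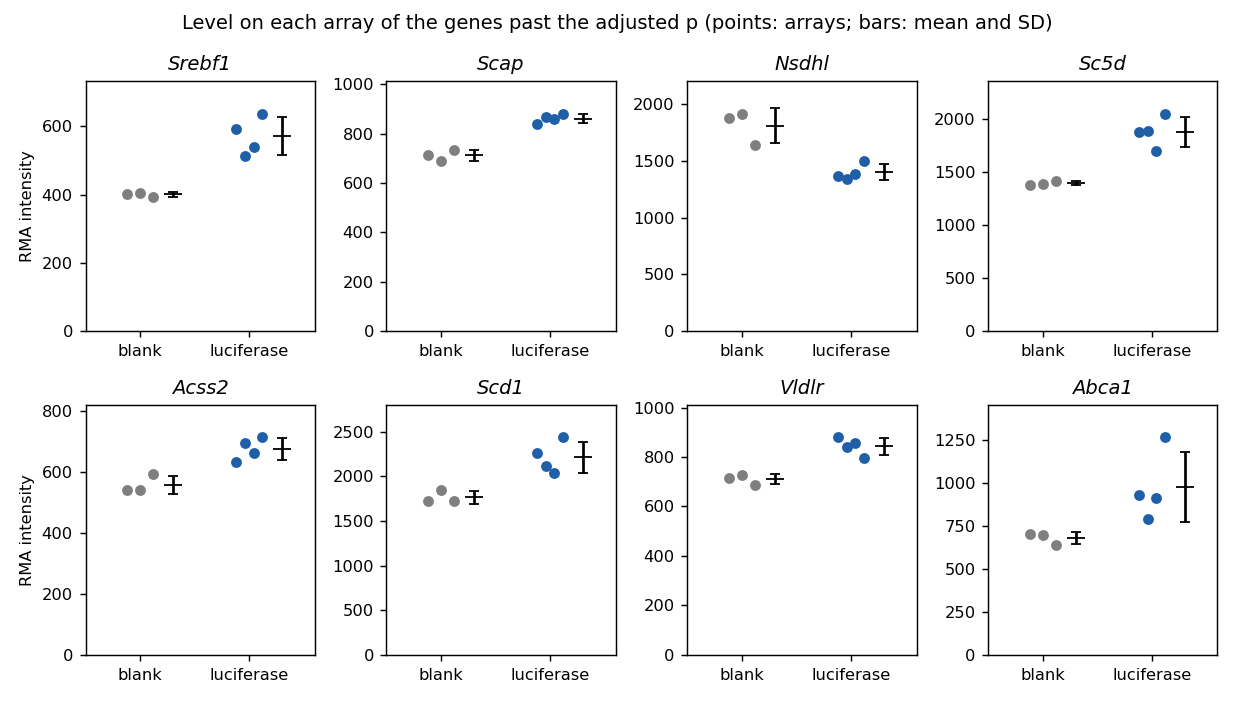
RMA intensity on each array (y axes from 0) of the 8 genes past an adjusted p of 0.05, for 3 blank and 4 luciferase arrays, with the mean and SD beside the points. In all 8 genes, chosen by the test on these same arrays, the groups do not overlap, as in 37.5% of all genes tested. *Nsdhl* is lower on the luciferase arrays and the other 7 are higher, from 0.25 for *Vldlr* to 0.51 for *Srebf1* on the log2 scale.

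Sterol and fatty acid enzymes were set side by side as a description. The median log2 change was -0.14 over the 17 sterol enzymes and 0.014 over the 10 fatty acid enzymes, a difference of -0.15. Array by array, the sterol median minus the fatty acid median (each gene's log2 distance from its mean on the blank arrays) was -0.24, -0.097, -0.22 and -0.030 in the luciferase cultures, against 0.066, 0.038 and -0.071 in the blank ones. All 4 luciferase arrays were below 0, but blank replicate 7 was below luciferase replicate 4, so the groups overlapped. The difference kept its sign when each array was left out, from -0.25 without blank replicate 7 to -0.061 without blank replicate 5. *Acss2* and *Acly* supply acetyl-CoA to both branches. Without them 1 fatty acid enzyme rose instead of 2.

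**Figure D4:**
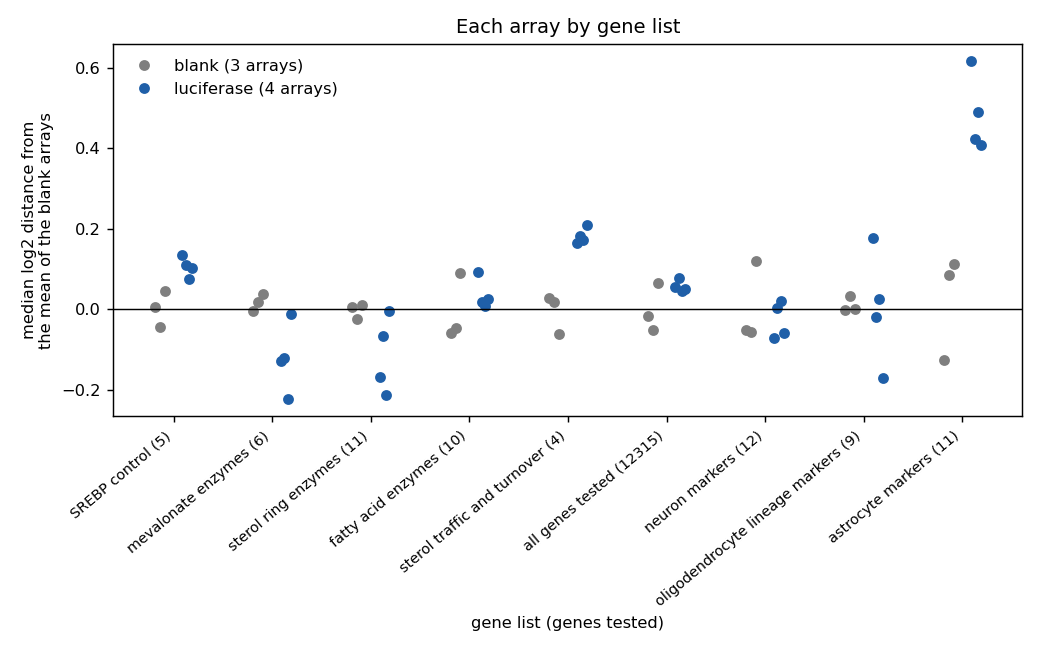
Median over the genes of a list of the log2 distance from the mean of the blank arrays (y axis), 1 point for each array, with the number of genes tested in parentheses. On the luciferase arrays the sterol enzyme lists lie at or below 0 (mevalonate enzymes -0.013 to -0.22) and the astrocyte markers at 0.41 to 0.62. The SREBP control and traffic genes lie above 0 there in these values as deposited, as do all genes tested (0.046 to 0.077).

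Of the 4 genes of sterol traffic and turnover, 2 rose as deposited, where 16.9% of all genes did, and 0 rose or fell after quantile normalization or with centred arrays (limma adjusted p = 0.060 and 0.072 for *Abca1* and 0.098 and 0.17 for *Vldlr*). *Abca1*, the transporter that loads cholesterol onto lipoprotein particles and a classical LXR target, read 930.5, 789, 917 and 1267 in the luciferase cultures, against 702, 697 and 642.5 in the blank ones. The groups did not overlap, and luciferase replicate 4 was the highest by far. Its log2 change was 0.50 (standard error 0.14, limma adjusted p = 0.031), and a weaker probe set changed by 0.36 (limma adjusted p = 0.045). It passed under 8 of 15 alternatives, with adjusted p from 0.014 to 0.073, and missed the test without luciferase replicate 1 or 3 and without any 1 of the blank arrays. Without luciferase replicate 2 the log2 change was 0.59, which made it the 1 gene of the set past 1.5-fold.

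*Vldlr*, a lipoprotein receptor that also serves reelin signaling, read 879, 841, 855 and 796 in the luciferase cultures, against 714, 727 and 689 in the blank ones. Its groups were apart. The log2 change was 0.25 (standard error 0.070, limma adjusted p = 0.032). All 5 of its probe sets were above 0, from 0.11 to 0.26, and 2 of them passed. Under the alternatives it passed in 6 of 15 (adjusted p from 0.0078 to 0.17), and leaving out luciferase replicate 1, 2 or 3 or blank replicate 5 or 6 ended the call.

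*Stard4*, a cytosolic sterol carrier and known SREBP target, lay between 1243 and 2021 in the luciferase cultures and between 1570 and 1828 in the blank ones. The luciferase range enclosed the blank range, and the log2 change was -0.040 (95% interval -0.37 to 0.29, limma adjusted p = 0.86). Its other probe sets changed by -0.25 and -0.31 and did not pass. *Cyp46a1*, the neuronal 24-hydroxylase through which the brain disposes of cholesterol, lay at 1322 ± 64.4 (SD, n = 4) against 1270 ± 57.7 (SD, n = 3), for a log2 difference of 0.058 (95% interval -0.11 to 0.22, limma adjusted p = 0.59).

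Around this set, 63 further genes of the same pathways were tested, and 16 (25.4%) rose and 4 (6.35%) fell as deposited, against 16.9% and 8.55% of all genes. After quantile normalization 11 (17.5%) rose and 8 (12.7%) fell, against 11.5% and 12.4%, and with centred arrays 7 (11.1%) rose and 11 (17.5%) fell, against 9.42% and 15.8%. Among 12 other genes of SREBP and LXR control, 5 rose and none fell by limma as deposited, 4 rose and 2 fell after quantile normalization, and 2 rose and 3 fell with centred arrays. *Thrsp*, a lipogenic regulator, read 2941, 2787, 2541 and 3298 in the luciferase cultures, against 2084, 2259 and 1896 in the blank ones, a log2 change of 0.47 (limma adjusted p = 0.012). *Prkaa1*, which encodes a catalytic subunit of AMP kinase, rose by 0.42 (limma adjusted p = 0.035) at low intensities of 44.4 to 77.1. *Rnf139*, a ubiquitin ligase of the endoplasmic reticulum, rose by 0.32 (limma adjusted p = 0.012).

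In 14 other genes of sterol traffic and turnover, 5 (35.7%) rose and 1 (7.14%) fell as deposited, against 16.9% and 8.55% of all genes. After quantile normalization 4 (28.6%) rose and 2 (14.3%) fell, against 11.5% and 12.4%. With centred arrays 3 (21.4%) rose and 2 (14.3%) fell, against 9.42% and 15.8%. *Cyp7b1*, which hydroxylates oxysterols, read 576, 454, 473 and 531 in the luciferase cultures, against 297, 340 and 296 in the blank ones. Its log2 change of 0.71 (95% interval 0.48 to 0.93, limma adjusted p = 0.0021) was the only one of the 63 past 1.5-fold. *Abcg1*, a cholesterol exporter and LXR target like *Abca1*, changed by 0.49 (limma adjusted p = 0.0048), and *Npc1*, which releases cholesterol from the lysosome, by 0.41 (limma adjusted p = 0.026). *Lipa*, the lysosomal acid lipase that frees cholesterol from its esters, fell by 0.50 on the log2 scale (limma adjusted p = 0.0063), from 223 to 243 on the blank arrays to 156 to 193 on the luciferase arrays.

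None of the 8 genes of the isoprenoid branch, which uses farnesyl diphosphate for dolichol, ubiquinone and protein prenylation, passed by limma. An unadjusted limma p under 0.05 was reached by 3 (37.5%), against 39.7% of all genes. In 29 other genes of fatty acids and glycerolipids, 6 (20.7%) rose and 3 (10.3%) fell as deposited, against 16.9% and 8.55% of all genes. After quantile normalization 3 (10.3%) rose and 4 (13.8%) fell, against 11.5% and 12.4%. With centred arrays 2 (6.9%) rose and 6 (20.7%) fell, against 9.42% and 15.8%. The risers included *Hacd2*, a dehydratase of very long chain fatty acid synthesis (log2 change 0.44, limma adjusted p = 0.0093), and *Acadm* and *Cpt1a*, which serve mitochondrial fatty acid oxidation (0.41 and 0.30, limma adjusted p = 0.0041 and 0.016). Those that fell were *Cpt1c*, the neuronal member of the carnitine palmitoyltransferase family (-0.43, limma adjusted p = 0.0055), *Acsl5*, an acyl-CoA synthetase (-0.43, limma adjusted p = 0.013), and *Hsd17b12*, the ketoreductase of fatty acid elongation (-0.41, limma adjusted p = 0.016). The risers *Acadm* and *Hacd2* and all 3 that fell also passed in both other scalings, and *Cpt1a* did not.

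**Figure D5:**
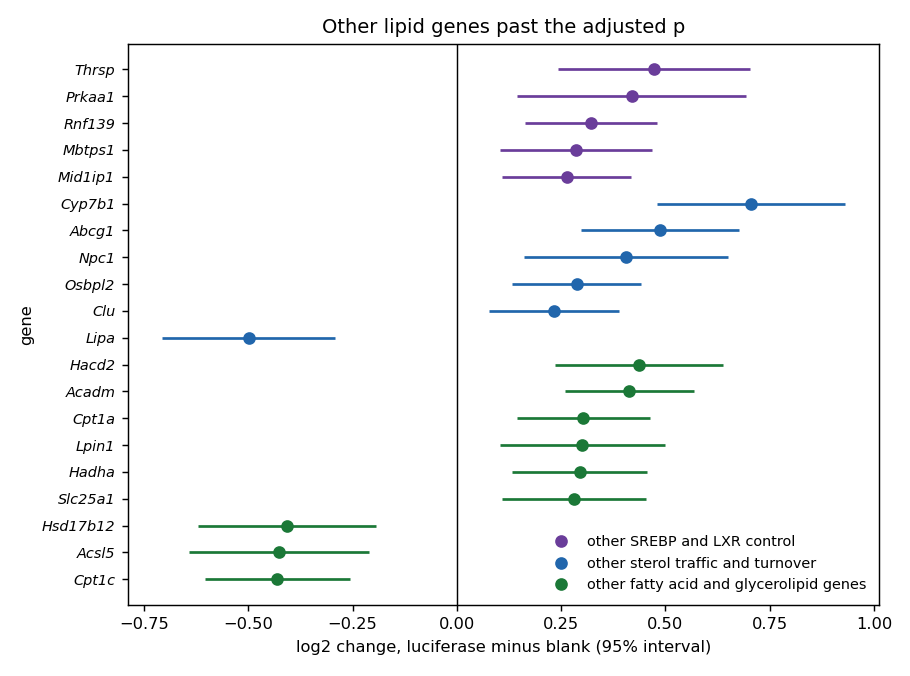
Log2 change (luciferase minus blank, x axis) with 95% interval of the 20 further lipid genes past an adjusted p of 0.05, of 63 tested. Of these, 16 lie to the right of 0, led by *Cyp7b1* at 0.71, and 4 lie to the left, *Lipa* at -0.50 being the lowest.

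Markers of the cells in the cultures were read beside these values. All 12 neuron markers were measured, their summed intensity was 51007 to 53028 in the luciferase cultures, against 50585 to 54639 in the blank ones, and the median log2 change was 0.0033, with 1 that rose and 2 that fell as deposited, 1 and 3 after quantile normalization, and 0 and 4 with centred arrays. *Nefl* and *Nefm*, which encode neurofilament subunits, fell by 0.80 and 0.66 on the log2 scale (limma adjusted p = 3.4e-04 and 0.0048), both past 1.5-fold, and *Slc17a7*, the vesicular glutamate transporter, rose by 0.39 (limma adjusted p = 0.040). *Tubb3* and *Map2*, which define neurons, changed by -0.12 and 0.096 and did not pass as deposited (limma adjusted p = 0.29 and 0.50). Of 11 astrocyte markers tested, 8 (72.7%) rose as deposited, against 16.9% of all genes, and none fell by limma. In either other scaling 7 (63.6%) rose, against 11.5% of all genes after quantile normalization and 9.42% with centred arrays. All 11 had an unadjusted limma p under 0.05, against 39.7% of all genes. Their summed intensity was 26272 to 28752 in the luciferase cultures, against 19485 to 21544 in the blank ones. *Gfap*, the astrocyte intermediate filament, read 900.4 to 1100 in the luciferase cultures, against 345 to 485.5 in the blank ones, and *Aqp4*, the astrocyte water channel, 657 to 807 and 349 to 438. *Aldh1l1*, a folate enzyme of astrocytes, rose by 0.86 (limma adjusted p = 2.4e-04). The astrocyte markers moved in the same direction as *Srebf1*, *Sc5d*, *Scd1*, *Abca1* and the other risers, and their part in these results was not tested. In bulk RNA, more cells of a type and more RNA per cell cannot be told apart.

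Of 9 oligodendrocyte lineage markers 1 rose and 1 fell as deposited (11.1% each, against 16.9% and 8.55% of all genes). Their summed intensities were 6484 to 7771 in the luciferase cultures, against 6824 to 7012 in the blank ones. *Mbp* rose by 0.39 (limma adjusted p = 0.015), and *Olig2* changed by -0.12 (limma adjusted p = 0.51). *Mag*, a myelin adhesion protein, fell by 0.40 (limma adjusted p = 0.045), at 36.26 to 49.08 on the luciferase arrays and 51.26 to 67.07 on the blank arrays. *Mag* thus passed the level filter through the blank arrays alone, and its fall is not read as a result. Only 2 of 8 microglia markers reached the filter, *Aif1* not among them, and neither passed by limma, while 1 had an unadjusted p under 0.05. Of 4 vascular and meningeal markers tested 3 fell in each of the 3 scalings, and their summed intensity was 490 to 680 in the luciferase cultures, against 927 to 1104 in the blank ones, with *Dcn*, a meningeal fibroblast marker, at 347 to 540.2 on the luciferase arrays and 760.4 to 940 on the blank arrays (limma adjusted p = 0.0022). *Flt1*, an endothelial receptor, fell by 0.43 (limma adjusted p = 0.0043), at 48.75 to 55.35 on the luciferase arrays and 67.4 to 70.86 on the blank arrays. *Col1a2*, a collagen gene, fell by 0.43 (limma adjusted p = 0.024), at 36.66 to 48.48 on the luciferase arrays and 50.96 to 61.37 on the blank arrays. Like *Mag*, it passed the level filter through the blank arrays alone, so its fall is not read as a result. *Cldn5* was not among those tested. *Dcn*, *Flt1* and both neurofilament genes moved in the direction of *Nsdhl*. The remaining vascular and meningeal marker tested changed by 0.12 (limma adjusted p = 0.49), at intensities of 35.9 to 52.5. The 12 neuron markers were split, 6 above and 6 below 0. What part any of these markers had in the change of *Nsdhl* was not tested.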

How the data were processed

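Total RNA of 7 cultures was hybridised to Affymetrix mouse arrays. The authors normalized the arrays with RMA (neither its version nor which arrays it took together is given in the sources used here) and left out 1 blank sample for quality, and the deposited values are intensity on a linear scale, from 5.2 to 23763 here. The blank columns sit 1 row lower than the others. Moved up by 1 row, their log2 group mean correlated with that of the luciferase columns at r = 0.995, against at most 0.421 for the other moves tried, and the move was applied. Of 45101 probe sets, 64 controls and 2441 with names ending in _x_at were left out, and 22748 of the remaining 42596 reached 50 on at least 1 array. The methods apply the same filters over all samples of the study, and here they were applied over these 7 arrays, so the probe sets tested differ.

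The fit was made on log2 values with limma's lmFit and eBayes (version 3.58.1, R 4.3.3, luciferase minus blank, no covariate), with Benjamini-Hochberg adjustment over the 22748. A probe set passed at an adjusted p of at most 0.05. The code was tested on simulated data. The number of arrays (4 and 3) limits the precision: the median standard error was 0.082 (log2) over the 36 genes. Gene names come from the array annotation, and promoter windows from RefSeq (GRCm38.p6). The rule for named genes took all members and, of each other list, the 3 largest rises and falls that passed, plus defining cell markers. The members, lists, alternatives and rule were chosen with earlier results of these data known. The labels and the methods name different RNA extraction reagents, and the condition was taken from the treatment label. Alternatives were other level filters, scalings, variance models, array weights, the mean over a gene's probe sets, and each array left out. Arrays of targeted hairpins were not analysed here, and some genes are not reported here.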

Additional observations from a re-analysis of the deposited data

Results flagged for a closer look

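Each gene's 4 luciferase arrays were searched for an array far from its neighbours by the ratio of its gap to the group's range (Dixon's test at the 95% level), whose critical value is exceeded by chance in about 5% of genes. Of the 36 genes, 2 exceeded the critical value. For *Insig1*, luciferase replicate 1 was the highest array with 1257 against 1200.0 to 1210 on the other 3, a ratio of 0.832. For *Elovl5*, luciferase replicate 4 was the lowest with 2273 against 2548 to 2573, a ratio of 0.919. Without luciferase replicate 4 *Elovl5* changed by 0.25 on the log2 scale, and without luciferase replicate 1 *Insig1* changed by 0.074. Neither gene passed the test with or without that array (limma adjusted p = 0.105 and 0.529 without it, 0.13 and 0.35 with it). Over the alternatives the limma adjusted p of *Elovl5* ranged from 0.00581 to 0.352 and that of *Insig1* from 0.267 to 0.949.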

How the results depend on the processing

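Over 15 alternatives for each of the 36 genes, 482 of 540 values stayed on the same side of the threshold, 33 lost the call and 25 gained it. The sign changed in 33 values of 14 genes, none of which passed with either sign. *Srebf1* and *Sc5d* passed throughout. Genes that rose numbered 7, but 4 with quantile normalization, 2 with arrays centred on the median and 10 with array weights. They numbered 5 without a level filter and 5 with the mean of a gene's probe sets. When 1 array was left out they numbered 2 (without blank replicate 5) to 8 (without blank replicate 7). Genes that fell numbered 1, but 4 with quantile normalization, 8 with centring, 4 with a trended robust variance, 6 with array weights and 2 with the mean of a gene's probe sets, and 0 (without blank replicate 5 or 6) to 2 (without luciferase replicate 4) with 1 array left out. All of those that fell were sterol enzymes, so the counts of sterol enzymes that fell were the same, 0 to 2 with 1 array left out. Sterol enzymes that rose numbered 1, but 2 with array weights. Fatty acid enzymes that rose numbered 2, but 1 without a level filter, 1 after quantile normalization, 0 with centring, 4 with array weights, 1 with the mean of probe sets, 1 without *Acly* and *Acss2*, and 0 (without blank replicate 5) to 4 (without blank replicate 7) with 1 array left out. Genes past 1.5-fold numbered 0 to 1 with 1 array left out. The median change of all 36 genes (0.0026) was -0.046 with quantile normalization, -0.093 with centring, and -0.033 to 0.028 with 1 array left out. The sterol median (-0.14) was -0.23 with centring and -0.16 to -0.083 with 1 array left out. The fatty acid median (0.014) was -0.082 with centring, 0.12 with array weights, and -0.049 to 0.12 with 1 array left out. Their difference (-0.15) was -0.30 with array weights and -0.25 to -0.061 with 1 array left out. Over all probe sets, 66.2% of those that passed were higher, and this was 49.5% with quantile normalization, 37.3% with centring and 56.8% with no filter. The cause of these shifts was not tested. No paired analysis was possible because the luciferase and blank replicates share no number. Small changes are limited by 3 blank arrays, of which replicate 7 stood apart in weight.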
